A study of Homo sapiens with 15 samples.

Results

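Mucin-type O-glycosylation is built by a short chain of Golgi enzymes, and 10 of its genes were followed here through a dose series of ZJ-101 in breast cancer cells. They were taken by symbol from the 59608 genes of the expression table: the initiating enzymes GALNT1, GALNT2, GALNT6, GALNT7, GALNT10, GALNT11 and GALNT12, the core 1 synthase C1GALT1 with its chaperone C1GALT1C1, and the core 2 enzyme GCNT1. All 10 were found, and all 10 passed the filter for testing, a mean normalized count of at least 10 over the 15 libraries. The samples were MDA-MB-231, an established human breast cancer cell line, grown flat in dishes and exposed for 6 h to 0.1% DMSO or to 0.5, 5, 50 or 500 nM ZJ-101, a simplified analog of the marine macrolide superstolide A. Each of the 5 groups held 3 biological replicates, and no group carried a further agent or genetic change. Every dose was compared with the same 3 DMSO libraries, so the comparisons are not independent of each other. The study itself singled out GALNT1 among the genes suppressed in these libraries, so the result for that gene is not independent evidence.

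In mucin-type O-glycosylation, a polypeptide GalNAc-transferase moves N-acetylgalactosamine from UDP-GalNAc onto serine or threonine of a protein passing through the Golgi. The many GALNT isoforms differ in the sites they prefer, and GALNT7 and GALNT10 are known for acting mainly on peptides that already carry a GalNAc. C1GALT1 then adds galactose to make the core 1 structure (T antigen) and needs the chaperone C1GALT1C1, also called Cosmc, to fold, while GCNT1 adds the branch that makes core 2. Truncated O-glycans that stop at the GalNAc (Tn antigen) are a known feature of many carcinomas, breast cancers among them.

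Libraries held 12415519 to 15284762 reads assigned to genes. Replicate 2 of the 0.5 nM group stood apart. Its counts differed from those of its 2 fellow replicates with chi-square values of 10.2 and 15.1 per degree of freedom, where the other 13 pairs of replicates gave 1.96 to 5.81 and sampling noise alone would give 1. Calls of the 10 genes that turned on that library are therefore given with and without it. The share of reads on mitochondrial genes was 0.942% to 1.58% in DMSO and 1.02% to 1.83% at 500 nM, so these ranges overlapped. Of the markers checked for this line, VIM, CD44, AXL, CAV1 and EGFR were abundant, with mean normalized counts from 5707 for EGFR to 14570 for VIM, and the estrogen receptor gene ESR1 averaged 0.744 and the leukocyte gene PTPRC 1.43. Markers listed as low or absent were not all near 0, with means of 13.7 for PGR, 147 for CDH1, 145 for GATA3 and 290.5 for EPCAM, and of 251 for the endothelial gene PECAM1. In bulk RNA, fewer cells that express a gene and less RNA per cell cannot be told apart.

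Upstream sequences are shown for GALNT1, C1GALT1 and C1GALT1C1, the 3 genes with the steepest slope on dose, so that the letters in front of their starts can be read beside the values. RefSeq windows on GRCh38.p14 were matched for 9 of the 10 genes and gave 14 windows of 250 bases that end just before an annotated start. Capitals mark the motifs found on either strand, a CCAAT box (CCAAT, or ATTGG on the other strand) or a GC box (GGGCGG, or CCGCCC). GALNT1 has several annotated starts: its outermost window is chr18:35580672-35580921 on the plus strand and its innermost chr18:35581490-35581739, the window of C1GALT1 is chr7:7182294-7182543 on the plus strand, and that of C1GALT1C1 is chrX:120630055-120630304, read on the minus strand.
GALNT1 outermost: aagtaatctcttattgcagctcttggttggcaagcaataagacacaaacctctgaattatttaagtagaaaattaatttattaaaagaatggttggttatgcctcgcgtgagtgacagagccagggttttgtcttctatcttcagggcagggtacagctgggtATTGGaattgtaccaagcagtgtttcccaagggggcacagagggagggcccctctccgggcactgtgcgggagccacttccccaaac
GALNT1 innermost: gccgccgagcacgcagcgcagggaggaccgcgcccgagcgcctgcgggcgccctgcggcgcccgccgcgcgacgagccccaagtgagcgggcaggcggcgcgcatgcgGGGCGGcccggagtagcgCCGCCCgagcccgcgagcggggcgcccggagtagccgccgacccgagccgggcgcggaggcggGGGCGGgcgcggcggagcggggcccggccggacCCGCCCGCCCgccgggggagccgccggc
C1GALT1: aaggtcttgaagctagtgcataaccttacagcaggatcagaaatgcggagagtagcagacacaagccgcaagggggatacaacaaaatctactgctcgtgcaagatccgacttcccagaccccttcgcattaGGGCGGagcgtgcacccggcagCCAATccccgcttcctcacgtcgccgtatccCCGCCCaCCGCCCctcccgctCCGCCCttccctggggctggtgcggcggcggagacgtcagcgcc
C1GALT1C1: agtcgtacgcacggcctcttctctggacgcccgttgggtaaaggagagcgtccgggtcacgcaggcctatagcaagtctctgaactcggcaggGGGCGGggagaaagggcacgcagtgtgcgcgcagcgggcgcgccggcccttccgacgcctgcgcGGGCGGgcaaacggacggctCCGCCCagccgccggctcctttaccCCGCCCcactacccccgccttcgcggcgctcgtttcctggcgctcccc

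The 4 windows differed widely in base composition, with 47.2% G and C in the outermost GALNT1 window, 87.2% in its innermost, 62.4% for C1GALT1 and 71.6% for C1GALT1C1, against a median of 58.0% over all 35116 windows. GC boxes were present in 10 of the 14 windows of the O-glycosylation genes and in 42.6% of all windows, and CCAAT boxes in 4 of the 14 and in 32% of all windows. The E box CACGTG, the cyclic AMP response element TGACGTCA, the Golgi stress element ACGTGGC and the ETS core CCGGAAGT had no match in the 14 windows, and are held by 6.34%, 1.65%, 2.78% and 3.42% of all windows. The heat-shock core GAANNTTC, held by 5.78% of all windows, matched 1 window, of GCNT1. A match describes the letters of a window and not a bound site.

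Levels per kb of the main transcript put GALNT10 and GALNT2 at the top of the 10 genes in DMSO, at 852.3 ± 13.6 and 793.8 ± 7.55 normalized counts per kb (mean ± SD, n = 3 here and for every group mean). GALNT1 followed at 383.1 ± 6.45 per kb and the chaperone gene C1GALT1C1 at 268.2 ± 3.61 per kb, above its client C1GALT1 at 193.2 ± 2.43 per kb. GALNT7, at 204.2 ± 9.54 per kb, overlapped C1GALT1 in its DMSO libraries, and GALNT6, at 178.8 ± 9.12, overlapped GALNT11, at 168.3 ± 4.93. GCNT1 was lower, at 90.56 ± 4.06 per kb, and GALNT12 was the lowest of the 10 at 13.08 ± 1.82 per kb. Which transcripts these cells use was not tested, and the order can depend on the length chosen. For GALNT11 the main transcript is 2739 bases long, while all its annotated exons together cover 8288. Read counts of GALNT12 were 20 to 41 per library, with a 95% Poisson interval of 12.2 to 30.9 for the lowest, which covers counting error only.

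**Figure D1:**
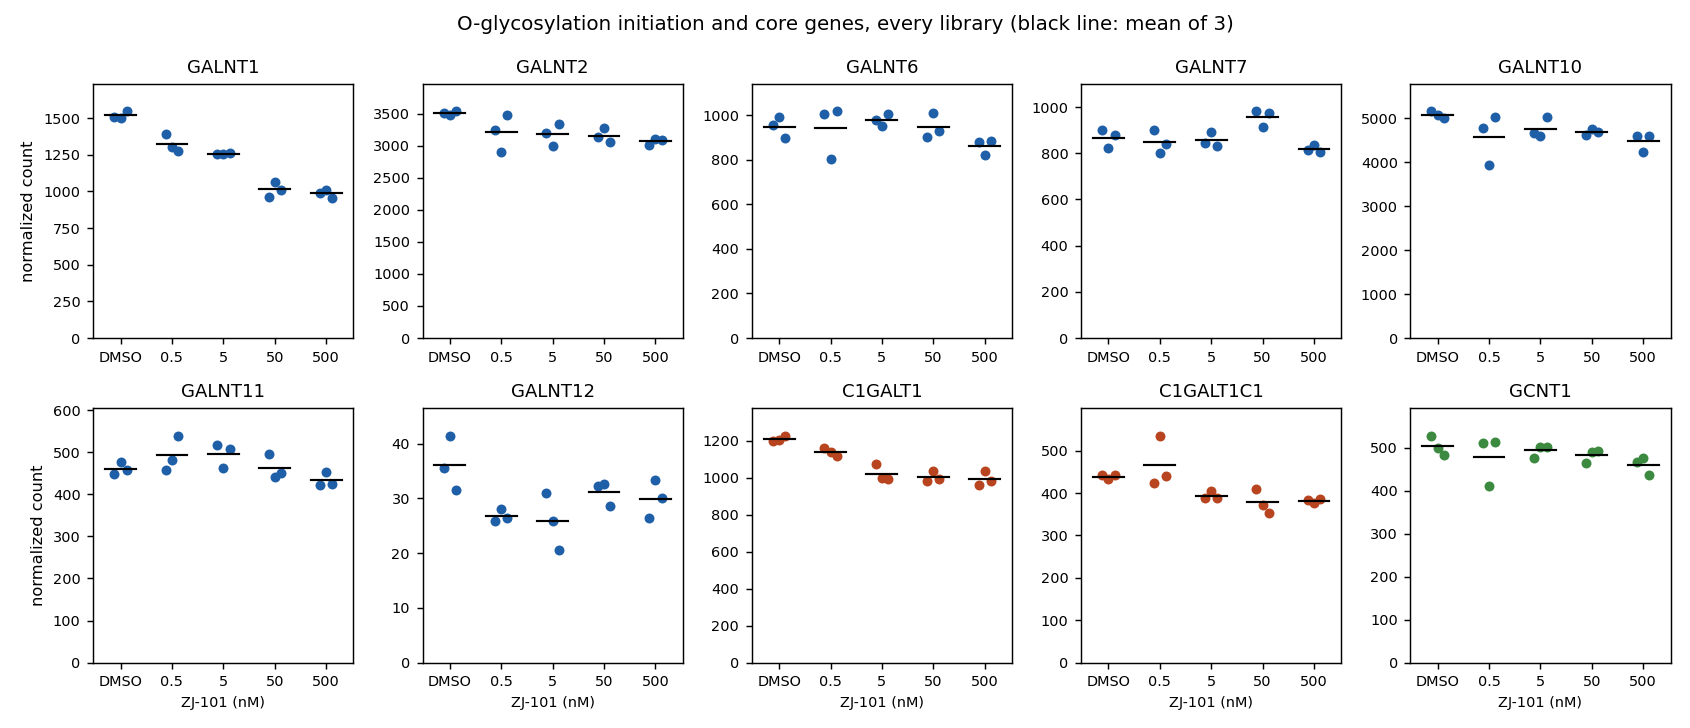
Normalized counts (vertical axes, each starting at 0) of the 10 genes in every library, by dose of ZJ-101 in nM, with blue points for initiation, red for core 1 and green for core 2, and a black line at the mean of 3 libraries. GALNT1 descended from 1502.3 to 1550.2 in DMSO to 958.3 to 1013.4 at 500 nM, and the 0.5 nM library at 535.6 for C1GALT1C1 is replicate 2, which stood apart.

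At each dose of ZJ-101 a minority of these enzymes was called lower than DMSO, and none was called higher. At 0.5 nM limma called 1 of the 10 lower, GALNT1, where 0.922% of all 13561 tested genes were called lower. At 5 nM GALNT1 and C1GALT1 were lower, 2 of 10 against 1.71% of all genes, and at 50 nM the same pair, against 3.71%. At 500 nM GALNT1, GALNT2 and C1GALT1 were lower, 3 of 10, where 10.1% of all genes were called lower. With limma, 0 of the 10 were called higher, where 0.251%, 0.465%, 2.29% and 7.69% of all genes were at the 4 doses in rising order. At an unadjusted p under 0.05 the only higher gene was GALNT7 at 50 nM, and edgeR and DESeq2 also called 0 higher.

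The fitted change of all 10 genes was negative at 500 nM, with a median log2 fold change of -0.19, while 49.4% of all tested genes were negative and their median was 0.003. At the lower doses the medians of the 10 were -0.08, -0.12 and -0.14, with 8 of 10 negative each time. Libraries of 7 genes lay wholly below DMSO at 500 nM, as did those of 19.6% of all tested genes. At 0.5, 5 and 50 nM the number lying wholly below was 3, 5 and 5, beside 10.7%, 12.7% and 13.2% of all genes. The 1 gene lying wholly above DMSO at any dose was GALNT7 at 50 nM, where 11.6% of all genes did so, beside 7.43%, 10.5% and 18.9% at 0.5, 5 and 500 nM. A slope fitted on dose rank was negative and passed the threshold for GALNT1, C1GALT1, C1GALT1C1 and GALNT2, 4 of 10, against 9.33% of all genes. The calls for GALNT1, C1GALT1 and C1GALT1C1 held in all 26 alternatives, and that for GALNT2 in 16.

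**Figure D2:**
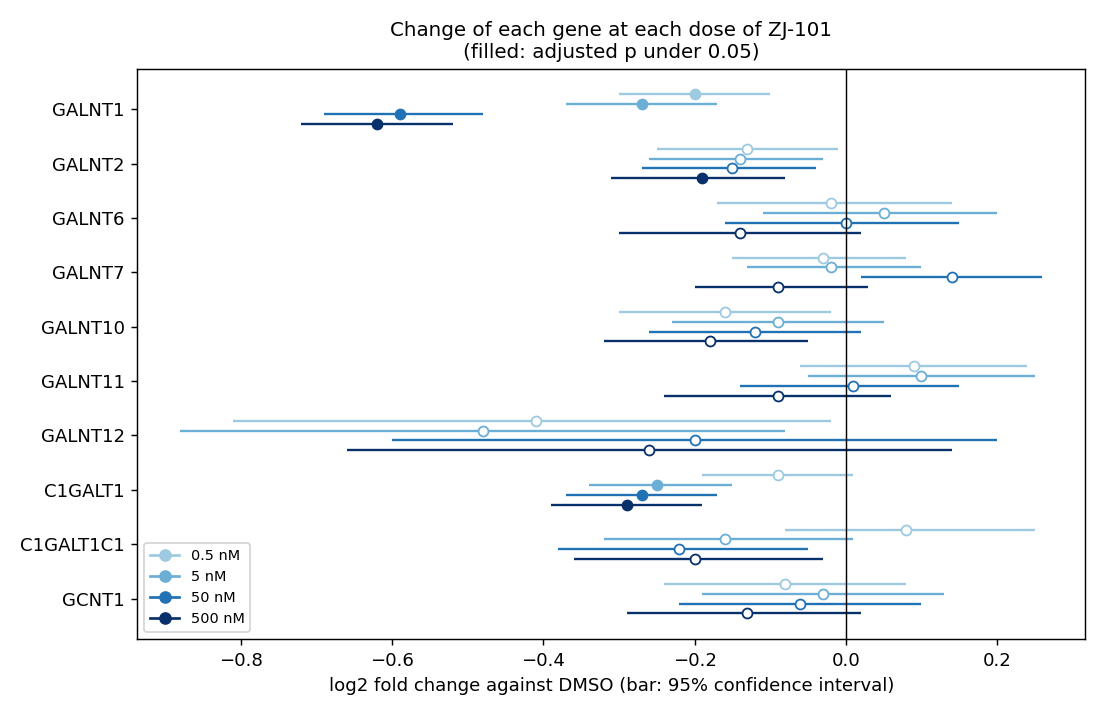
Log2 fold change against DMSO (horizontal axis) of the 10 genes at 0.5, 5, 50 and 500 nM ZJ-101, light to dark blue, with bars for the 95% confidence interval and filled points for an adjusted p under 0.05. GALNT1 reached -0.59 and -0.62 at the highest doses, C1GALT1 lay between -0.25 and -0.29 from 5 nM on, and the intervals of GALNT12 were the widest.

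GALNT1, a widely expressed initiating enzyme on the plus strand of chromosome 18 (hg38 chr18:35581117-35711834), had the largest fitted fall of the 10 at 50 and 500 nM. Its normalized counts were 1510.6, 1502.3 and 1550.2 in the DMSO libraries. They were 1391.7, 1304.5 and 1279.4 at 0.5 nM and 1258.5, 1258.5 and 1259.8 at 5 nM. All 6 of these low-dose libraries lay below DMSO. At 50 nM the values were 964.9, 1067.5 and 1010.5, and at 500 nM 991.7, 1013.4 and 958.3, so that the highest doses overlapped each other and lay below every library at 5 nM.

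At 500 nM GALNT1 fell by 35.0%, with a 95% confidence interval of -39.4% to -30.4%, a log2 fold change of -0.62 (SE 0.05) and an adjusted p of 2.1e-08. By p it ranked 73 among the 6697 genes with a negative change at 500 nM. The change was -0.59 at 50 nM (adjusted p = 1.4e-07) and -0.27 at 5 nM (adjusted p = 0.0043), and these calls held in all 26 alternatives run. The call at 0.5 nM was marginal, -0.20 with an adjusted p of 0.0499, and it held in 9 of the 26. It was lost without any 1 of DMSO replicates 1, 2 and 3, 0.5 nM replicates 2 and 3, 5 nM replicates 1, 2 and 3, 50 nM replicate 3 or 500 nM replicates 1, 2 and 3, with adjusted p up to 0.26 over all alternatives and 0.075 without 0.5 nM replicate 2.

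Between neighbouring doses GALNT1 was the 1 gene of the 10 called from 5 to 50 nM, with a log2 change of -0.31 and an adjusted p of 4.5e-04, where 2.39% of all genes were called lower. From 50 to 500 nM its change was -0.04 with a 95% confidence interval of -0.14 to 0.06, and from 0.5 to 5 nM it was -0.07 with an interval of -0.17 to 0.03. In that lowest step limma called 0 of the 10 genes, where 0.0885% of all genes were called lower. At an unadjusted p under 0.05 2 were lower there, C1GALT1 and C1GALT1C1, and edgeR and DESeq2 called 0. For C1GALT1C1 the 0.5 nM group held replicate 2, the library that stood apart, at 535.6 beside 424.4 and 440.8. Without that library its log2 change at 0.5 nM against DMSO was -0.02 in place of 0.08. The step of C1GALT1C1 without that library is not given here.

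GALNT2, the other widely expressed initiating enzyme and the better represented of the pair, changed less. Its normalized counts were 3510.4, 3478.0 and 3544.8 in DMSO and 3009.6, 3109.0 and 3096.5 at 500 nM, so the groups did not overlap. It fell by 12.5%, with a log2 fold change of -0.19 (SE 0.06) and an adjusted p of 0.021. This call was lost on leaving out any DMSO library or 500 nM replicate 1 or 3, where adjusted p reached at most 0.078. At 0.5, 5 and 50 nM GALNT2 stood at -0.13, -0.14 and -0.15, with adjusted p of 0.28, 0.25 and 0.13. It was called at 50 nM without 0.5 nM replicate 2 (adjusted p = 0.023) and at 5 and 50 nM when the fit held only the 6 libraries of the dose and DMSO (adjusted p = 0.041 and 0.023). The slope of GALNT2 on dose rank was -0.04 per step with an adjusted p of 0.036, and it was lost on leaving out any DMSO library, any 500 nM library, 0.5 nM replicate 3 or 50 nM replicate 3 and with no filter on low genes, and over the 12 treated libraries the slope was -0.02 with an adjusted p of 0.53. Of its exon bases, 13.3% lie in other annotated genes, and whether the counting used strand is not given in the sources used here.

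The log2 ratio of GALNT1 to GALNT2 within a library, which does not depend on the library's scaling, was -1.207 ± 0.012 in DMSO and -1.637 ± 0.048 at 500 nM. On a linear scale the normalized count of GALNT1 was 0.430, 0.432 and 0.437 of that of GALNT2 in DMSO and 0.329, 0.326 and 0.309 at 500 nM. The ratios did not overlap and differed by -0.430 on the log2 scale, with an exact two-sided permutation p of 0.10, the smallest that 3 against 3 libraries can give, and an adjusted p of 0.15 over the 3 ratios tested.

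GALNT10, which acts mainly on peptides that already carry a GalNAc, had normalized counts of 5162.3, 5070.3 and 5000.7 in DMSO and 4599.5, 4229.6 and 4582.9 at 500 nM. These groups did not overlap, but the change of -0.18 (95% confidence interval -0.32 to -0.05) had an adjusted p of 0.064. Replicate 2 at 0.5 nM, at 3936.6, was the lowest of all 15 libraries for this gene, and without it the adjusted p at 500 nM was 0.0022. GALNT10 was also called at 500 nM without 0.5 nM replicate 3 (adjusted p = 0.030), by DESeq2 (adjusted p = 0.042), with the replicate block (adjusted p = 0.036) and with only the 6 libraries of the dose and DMSO (adjusted p = 0.0021). Its slope on dose rank was -0.03 with an adjusted p of 0.17, and -0.04 with an adjusted p of 0.0023 without 0.5 nM replicate 2.

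GALNT7, another follow-up enzyme, was the 1 gene of the 10 whose libraries lay wholly above DMSO at a dose. It was at 900.4, 822.5 and 880.6 in DMSO, at 983.2, 912.5 and 972.2 at 50 nM and at 812.3, 834.4 and 804.6 at 500 nM. The 50 nM libraries lay above all the others of these 3 groups, while DMSO and 500 nM overlapped. Against DMSO the change at 50 nM was 0.14 with an adjusted p of 0.17, and the step from 50 to 500 nM was -0.23 with an adjusted p of 0.036, where 1.80% of all genes were called lower. That step lost its call without DMSO replicate 3, without 5 nM replicate 1 or without any library at 50 or 500 nM, with adjusted p of at most 0.15.

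The other initiating enzymes did not pass the threshold at any dose. GALNT6, an isoform known from breast cancer, had a change of -0.14 at 500 nM (95% confidence interval -0.30 to 0.02, adjusted p = 0.24), with 881.6, 820.2 and 884.1 all below the DMSO values of 958.1, 992.4 and 896.9. GALNT11, known for O-glycosylation of LDL-receptor family proteins, was at -0.09 (adjusted p = 0.44) and its libraries overlapped DMSO at all 4 doses. GALNT12 was at -0.26 with an interval of -0.66 to 0.14. Its libraries lay below DMSO at 0.5 and 5 nM, with means of 26.73 ± 1.18 and 25.82 ± 5.2 against 36.16 ± 5.04, but with adjusted p of 0.32 and 0.26. Of the exon bases of GALNT12, 20.9% lie in other annotated genes.

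C1GALT1, the galactosyltransferase that makes core 1 (hg38 chr7:7156934-7248616, plus strand), fell from 5 nM onward and then changed little. Its normalized counts were 1201.2, 1205.9 and 1229.6 in DMSO and 1161.0, 1142.3 and 1116.2 at 0.5 nM. They were 1074.3, 998.3 and 996.1 at 5 nM, 984.2, 1035.9 and 996.6 at 50 nM, and 960.1, 1035.7 and 983.0 at 500 nM. Every treated library lay below every DMSO library, and the 5, 50 and 500 nM groups overlapped one another.

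The log2 fold change of C1GALT1 was -0.09 at 0.5 nM (adjusted p = 0.40), -0.25 at 5 nM (adjusted p = 0.0085) and -0.27 at 50 nM (adjusted p = 9.7e-04). At 500 nM it was -0.29 (SE 0.05, adjusted p = 2.2e-04), and the level fell by 18.1% with a 95% confidence interval of -23.5% to -12.3%. The calls at 50 and 500 nM held in all 26 alternatives, and that at 5 nM was lost without 5 nM replicate 2 (adjusted p = 0.057). From 5 to 50 nM C1GALT1 moved by -0.02 (interval -0.12 to 0.07) and from 50 to 500 nM by -0.02 (interval -0.12 to 0.08).

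C1GALT1C1, the endoplasmic reticulum chaperone without which core 1 synthase is not active (hg38 chrX:120625674-120630054, minus strand), had normalized counts of 442.0, 432.0 and 442.3 in DMSO and 384.2, 377.2 and 385.1 at 500 nM. The 500 nM libraries lay below DMSO with little spread, at 382.2 ± 4.3 against 438.8 ± 5.9, but the fitted change of -0.20 had an adjusted p of 0.091. The fit shares its spread over all groups, and in the 0.5 nM group replicate 2 was at 535.6 while the others were at 424.4 and 440.8. Without that library the adjusted p was 0.022 at 500 nM and 0.028 at 50 nM, where the change with all libraries was -0.22 (adjusted p = 0.12). The slope on dose rank was -0.07 per step with an adjusted p of 0.016, and that call held in all 26 alternatives.

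The log2 ratio of C1GALT1 to C1GALT1C1 was 1.466 ± 0.021 in DMSO and 1.377 ± 0.071 at 500 nM, a difference of -0.089 with an exact two-sided permutation p of 0.20, in a design that cannot go below 0.10. A linear ratio of 2.717, 2.792 and 2.780 in DMSO thus stood beside 2.499, 2.745 and 2.553 at 500 nM, and the groups overlapped. These ratios are of normalized counts not divided by transcript length, 6275 bases for C1GALT1 and 1636 for C1GALT1C1. They therefore do not give the order of the levels per kb.

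GCNT1, the enzyme that branches core 1 into core 2, did not pass the threshold at any dose. Its normalized counts were 528.5, 499.8 and 483.9 in DMSO and 465.8, 475.3 and 436.3 at 500 nM, which did not overlap. The change at 500 nM was -0.13 with a 95% confidence interval of -0.29 to 0.02 and an adjusted p of 0.26. Relative to C1GALT1, its log2 ratio was -1.267 ± 0.081 in DMSO and -1.113 ± 0.065 at 500 nM, a difference of 0.154 with an exact two-sided permutation p of 0.10, the smallest possible, and 0.15 after adjustment.

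To place the 7 initiating enzymes in their whole family, the other 13 GALNT genes were examined as a list. Of these, 5 were tested and 3 were called lower at 500 nM, where 10.1% of all genes were, with a list median of -0.49 against 0.003 for all genes. GALNT5 fell from 1097.4, 1070.3 and 1086.6 in DMSO to 680.8, 704.9 and 655.3 (log2 fold change -0.67, adjusted p = 4.6e-06). GALNT18 fell from 370.9, 397.6 and 387.6 to 288.4, 248.8 and 287.9 (-0.49, adjusted p = 1.6e-04), and GALNT3, an isoform typical of epithelia, from 1472.2, 1411.2 and 1454.9 to 1072.2, 1110.5 and 1083.7 (-0.41, adjusted p = 8.1e-06). These 3 calls held in all 26 alternatives, and the same 3 genes were lower at 50 nM, at -0.42, -0.37 and -0.20 for GALNT5, GALNT18 and GALNT3. The remaining 2 tested, GALNT13 and GALNT16, named after their values were seen, were at -0.19 and -0.68 with adjusted p of 0.44 and 0.13. GALNT4 was at or near 0 throughout, but 94.1% of its exon bases lie in another annotated gene, so its level is uncertain.

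Summed over the 12 tested GALNT isoforms, the level per kb was 3302 ± 17.07 in DMSO (3286 to 3320) and 2734 ± 23.03 at 500 nM (2707 to 2748). At 0.5, 5 and 50 nM the sums were 3089 ± 215, 3083 ± 98.07 and 2923 ± 36.38. No treated group overlapped DMSO in this sum. At 0.5 nM, the group with the library that stood apart, it ran from 2844 to 3247. GALNT1 supplied 11.6% of it in DMSO and 9.1% at 500 nM, while GALNT10 went from 25.8% to 27.4% and GALNT2 from 24% to 25.4%.

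**Figure D3:**
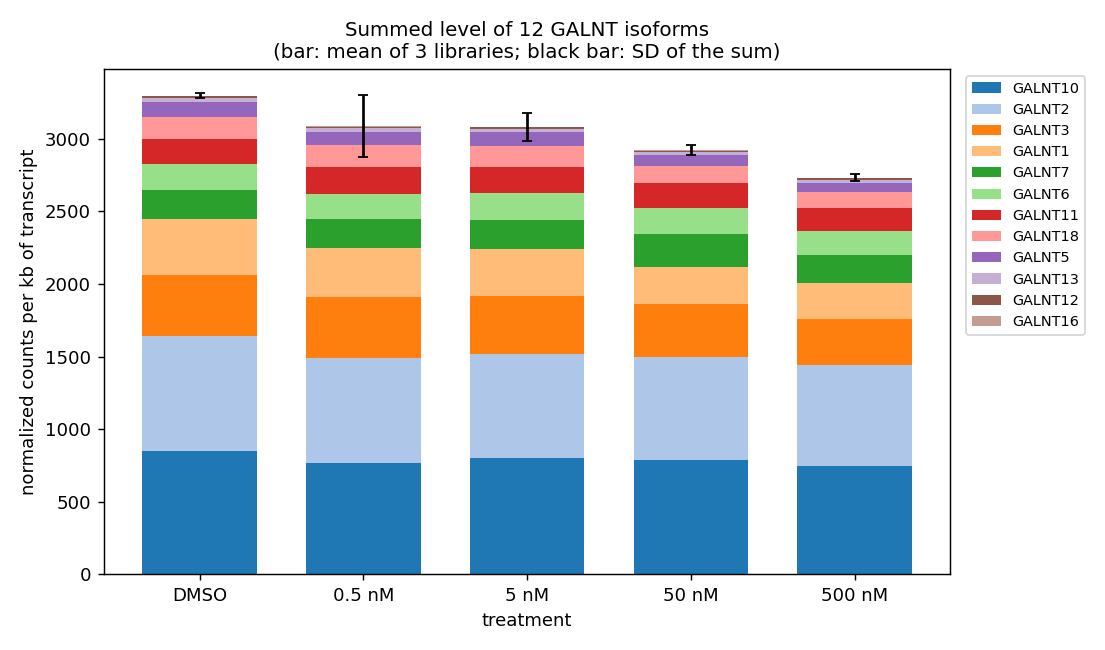
Level of 12 GALNT isoforms in normalized counts per kb of transcript (vertical axis from 0), stacked by isoform as means of 3 libraries in each treatment, with a black bar for the SD of the sum. The stack was 3302 high in DMSO and 2734 at 500 nM, and GALNT10 and GALNT2 made up its lower part throughout.

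Genes on either side of the 10 in the pathway were examined at 500 nM as lists. Of 13 other core and capping enzymes 7 were tested and 1 was lower, where 10.1% of all genes were, the sialyltransferase gene ST3GAL2, at -0.18 with an adjusted p of 0.016, and the list median was 0.04. Leaving out DMSO replicate 1, DMSO replicate 2 or 500 nM replicate 1 ended that call, with adjusted p up to 0.087. Of 5 genes that supply UDP-GalNAc and UDP-galactose all 5 were tested and 1 was lower, UGP2, which makes UDP-glucose, at -0.20 with an adjusted p of 0.020. Leaving out DMSO replicate 2, DMSO replicate 3 or 500 nM replicate 3 ended it, with adjusted p up to 0.091. SLC35A2, the UDP-galactose transporter of the Golgi, and UAP1, which makes UDP-N-acetylhexosamines, named after their values were seen, stood at 0.16 and 0.13 with adjusted p of 0.051 and 0.094. By the slope on dose rank SLC35A2 was called higher (0.05, adjusted p = 0.021) and UGP2 lower (-0.05, adjusted p = 0.013). Of the 7 core and capping enzymes that slope called 2 lower, ST3GAL2 (-0.04, adjusted p = 0.011) and GCNT3 (-0.19, adjusted p = 0.018). GCNT3, named after its values were seen, averaged 34.42 ± 4 in DMSO and 23.42 ± 8.43 at 500 nM, and these libraries overlapped. Its change at 500 nM was -0.59 with an adjusted p of 0.11. The slope on dose rank was called in either direction for 2381 of 13561 genes.

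Mucins and mucin-like membrane proteins, which carry these glycans, formed the last list. Of 18 listed, 7 were tested and 5 were called lower at 500 nM, where 10.1% of all genes were, and the list median was -0.38. MUC1, the main transmembrane mucin of breast epithelium, was at 41.3, 31.4 and 43.6 in DMSO and 15.3, 22.3 and 20.3 at 500 nM, a log2 fold change of -0.97 with an adjusted p of 0.0058. SELPLG, the P-selectin ligand, was at -0.77 (adjusted p = 0.0041) and CD164, a sialomucin, at -0.38 (adjusted p = 8.8e-07). CD44, the hyaluronan receptor, and PODXL, podocalyxin, named after their values were seen, were at -0.38 and -0.26 with adjusted p of 1.4e-06 and 0.0079. The order of MUC1 did not follow dose: it averaged 16.36 ± 1.29 at 0.5 nM (-1.18, adjusted p = 0.016), 20.45 ± 2.27 at 5 nM (-0.88, adjusted p = 0.056) and 32.94 ± 10.2 at 50 nM (-0.26, adjusted p = 0.66). MUC1 overlapped DMSO at 50 nM and at no other dose. PODXL was not in dose order either, at -0.32 (adjusted p = 0.018), -0.22, -0.18 and -0.26 from 0.5 to 500 nM. Its 0.5 nM libraries were at 4494.5, 3805.4 and 4838.0, of which the lowest is replicate 2, the library that stood apart. The 0.5 nM changes of the genes in this list are not given with a library left out. SELPLG was at -0.65, -0.45, -0.43 and -0.77. Slopes on dose rank passed the threshold for CD164 (-0.09, adjusted p = 1.4e-06) and CD44 (-0.10, adjusted p = 5.7e-06). Those of MUC1, PODXL and SELPLG did not (adjusted p = 0.45, 0.23 and 0.056).

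**Figure D4:**
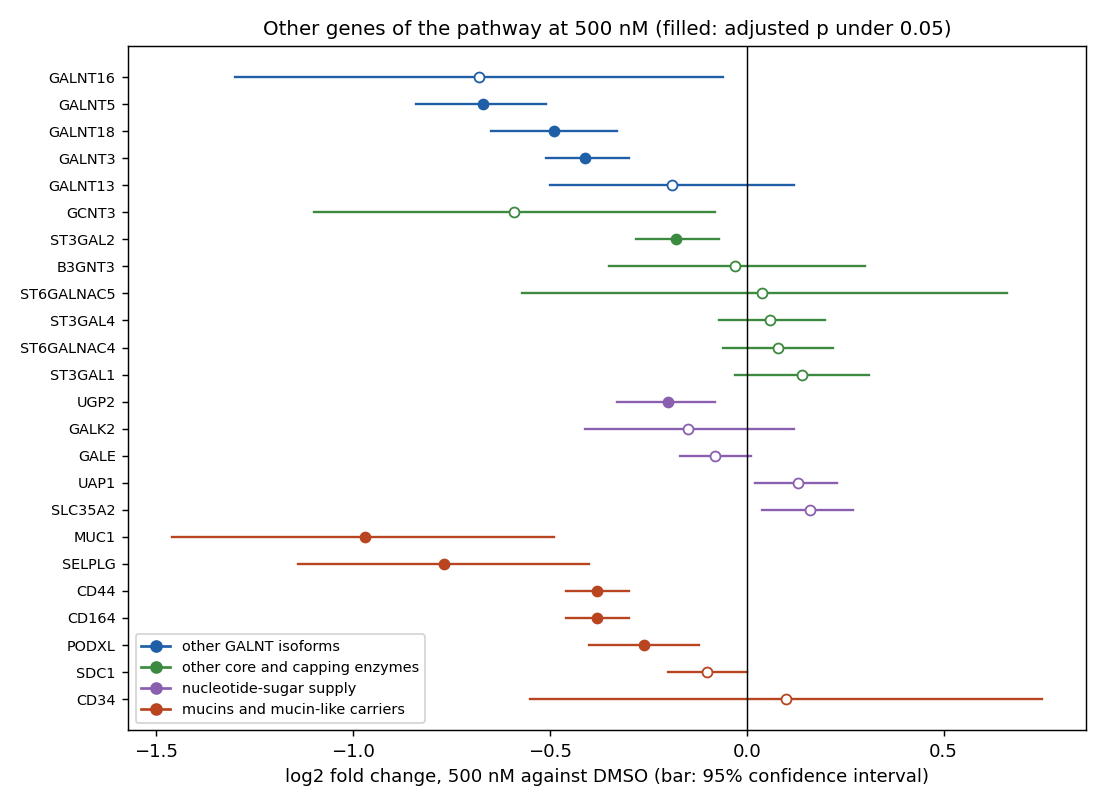
Log2 fold change at 500 nM against DMSO (horizontal axis) of the 24 tested genes of 4 further pathway lists, coloured by list, with bars for the 95% confidence interval and filled points for an adjusted p under 0.05. All 10 filled points lie left of 0, from -0.97 for MUC1 to -0.18 for ST3GAL2.

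Among all tested genes, those whose profile over the 15 libraries was most like that of GALNT1 were UGT8, OLFML2A and MATN2, with Pearson r of 0.976, 0.973 and 0.969. UGT8, which makes galactosylceramide, averaged 570.5 ± 27.1 normalized counts in DMSO and 366.8 ± 6.7 at 500 nM, and OLFML2A and MATN2, both of secreted matrix-associated proteins, went from 329.9 ± 8.11 to 69.07 ± 1.85 and from 344.7 ± 8.4 to 108.6 ± 10.4. Among the 10 genes GALNT1 was most like C1GALT1 (r = 0.88 over the same libraries), and GALNT2 was most like GALNT10 (r = 0.85). These coefficients describe libraries that share dose groups and size factors, and no test was made of them.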

How the data were processed

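Normalized counts for 15 libraries were analysed. Poly-A RNA had been sequenced in paired reads, which the authors mapped with HISAT2 (build hg38) and summed by gene with htseq-count. They deposited the signal as counts divided by DESeq2 size factors (0.916 to 1.13). Strandedness, tool versions and the annotation release are not given in the sources used here. 1 line with no gene name was dropped. Undoing the size factors gave whole reads again, within 0.001 of a read for 100.0% of values.

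The main test was limma 3.58.1 (R 4.3.3) on log2(normalized count + 1) with a variance trend, on 13561 genes with a mean of at least 10. All 5 groups entered 1 fit without covariates, with Benjamini-Hochberg adjustment over all tested genes and a threshold of 0.05. Fold changes on this scale are slightly understated for low genes. Contrasts were each dose against DMSO, neighbouring doses, and a slope on dose rank. Ratios were compared by exact permutation tests. edgeR 4.0.16 and DESeq2 1.42.0 on recovered reads were alternatives, beside other pseudocounts, filters, scalings, a replicate block and each library left out. The code was tested on simulated data.

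All 10 genes were named, with up to 3 rises and 3 falls per further list, and the 3 genes closest to the member with the smallest p at 500 nM. The genes and lists were chosen with earlier results of these data known. Lengths and positions came from GENCODE release 44, and upstream windows from RefSeq. No gene among the 10 had a near-identical copy.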

Additional observations from a re-analysis of the deposited data

How the results depend on the processing

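Over all alternatives 1602 values of single genes were recomputed: 1540 kept their side of the threshold, 48 lost a call, 14 gained one and 0 changed direction while called. Of the 10 genes, the number called at 0.5 nM went from 1 to 0 with no filter on low genes, with the replicate block, with TMM scaling, with edgeR and with the 6 libraries of the dose and DMSO, and lay between 0 and 1 when a library was left out. At 5 nM it lay between 1 and 2 with a library left out, and at 50 nM between 2 and 4, with 4 without 0.5 nM replicate 2. At 500 nM it was 5 at an adjusted p under 0.1 and 5 with 6 libraries, and lay between 2 and 5 with a library left out, with 5 without 0.5 nM replicate 2. In those settings the calls over all genes rose as well. They were 3122 of 13561 genes at an adjusted p under 0.1, 3295 of 13567 with 6 libraries and 3098 of 13563 without 0.5 nM replicate 2. The main fit called 2409 of 13561. For the step from 50 to 500 nM it was 0 with no filter and lay between 0 and 1 with a library left out. The cause of these shifts was not tested. Some of the settings also change the number of libraries in the fit or the number of genes tested. Replicate numbers did not pair the libraries: deviations of same-numbered libraries correlated at -0.09 to 0.10 (30 pairs) and of others at -0.13 to 0.12 (60 pairs). Among the genes named here the block changed 1 further call, that of GALNT10 at 500 nM (adjusted p = 0.036). The number of all genes called at 0.5 nM was 159, and lay between 19 and 388 with a library left out, at 21 with 6 libraries, at 108 with no filter, at 244 with DESeq2 and at 285 at an adjusted p under 0.1. At 5 nM it was 295, and 113 to 623 with a library left out, 849 with 6 libraries and 497 at an adjusted p under 0.1. At 50 and 500 nM it rose from 814 and 2409 to 1277 and 3098 without 0.5 nM replicate 2, and the highest counts with a library left out at 5, 50 and 500 nM were those without it. The count of all genes called from 5 to 50 nM was 679, and 424 without 5 nM replicate 3 to 1129 without 0.5 nM replicate 2. From 50 to 500 nM it was 309, and 139 without 50 nM replicate 2 to 630 without 0.5 nM replicate 2. GALNT12, with 20 to 41 reads per library, had the widest intervals of the 10 genes.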
